A study of Drosophila melanogaster with 136 samples.

Results

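The genes described here carry lipid between the organs of the fly or store it in droplets. They are apolpp and Apoltp, which encode the apolipoproteins of the circulating lipoproteins, Mtp, LpR1 and LpR2, Lsd-1 and Lsd-2, bmm, Hsl and mdy. They were chosen by name, with earlier results of these data known. Each was followed through the probe sets that the array annotation gives to its symbol. Of the 10 genes, 9 had such a probe set, out of 11982 genes with a probe set of 1 symbol. No row of the annotation lists Hsl, the hormone-sensitive lipase, which is not analysed here. LpR1 had 2 probe sets and the other 8 genes 1 each, 10 in all.

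In Drosophila, lipid travels in the haemolymph as lipophorin, a lipoprotein built on the protein of apolpp and loaded with the help of the microsomal triglyceride transfer protein encoded by Mtp. The lipid transfer particle, built on Apoltp, loads lipophorin with gut lipid, and the lipoproteins are made in the fat body, the storage organ that combines functions of liver and adipose tissue. Cells bind lipophorin through receptors of the LDL receptor family, among them LpR1 and LpR2, and keep triacylglycerol in droplets coated by the perilipins Lsd-1 and Lsd-2. The lipase Brummer (bmm) breaks droplet triacylglycerol down, and midway (mdy), a diacylglycerol acyltransferase, makes it.

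RNA of 34 groups was measured on 136 Affymetrix Drosophila Genome 2 arrays, 4 per group. The flies and larvae were of the Canton-S strain. There were 22 groups of 7-day-old adults, including the whole fly, 9 of feeding larvae of the third instar, including the whole larva, and 2 of wandering larvae, which have left the food. The last group was the S2 cell line, derived from embryos. No group carries a mutation or a treatment, and, apart from S2 cells, which came from culture, each array holds RNA pooled from 12 to 100 flies per sex or from 30 to 100 larvae. Some labels call the arrays biological replicates and others only replicates, so a p-value speaks only of how much these samples vary, which may be technical.

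Several groups hold more than the tissue they are named for. Per the labels the heart includes adhering tissue such as fat body, and the spermatheca, the sperm store of the female, came with the fat body around it. The adult fat body was taken from thorax and abdomen, the feeding larval fat body is the lateral part and the wandering one the part under the cuticle. The adult carcass is abdominal cuticle, whereas the larval carcass is what is left after dissection. Amplification was 1 round in 115 arrays and 2 rounds in 9, those of the first mated and virgin spermatheca and 1 array of the redone mated set. Another labelling kit was used for the 12 arrays of eye, heart and larval trachea. In all comparisons of these groups with others, save mated against virgin spermatheca, tissue and labelling cannot be told apart. The labels of the accessory gland, a male organ, list 25 females and 25 males.

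A pair of arrays went against their labels. Array 4 of the thoracic muscle correlated best with a redone mated spermatheca array, with r = 0.976 over all probe sets against at most 0.799 within its own group. Array 2 of the redone mated spermatheca correlated best with thoracic muscle, with r = 0.943 against at most 0.774 within its group. Calls of both groups against the whole fly, the order of groups and the correlations between genes are therefore given with and without these arrays; other values include them. In all, 6 arrays correlated best with an array of another group. Among them was array 4 of the feeding larval fat body, at 0.952 with a wandering fat body array and at most 0.925 within its group. No 2 arrays were identical.

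Summed over the 5 measured fat body markers (Gnmt, fit, Lsp2, Fbp1 and Fbp2), the signal was 22481 to 28153 in feeding larval fat body, 22096 to 35994 in wandering larval fat body and 6505 to 9732 in adult fat body. It was 43.4 to 56.3 in the adult midgut, 6.86 to 22.5 in the ovary and 431 to 676 in the whole fly. The members differ by stage: Fbp1 averaged 7242 in feeding larval fat body and 6.64 in adult fat body, and fit 4.08 and 4237. In these bulk samples, fewer cells of a type and less RNA per cell cannot be told apart.

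Signals are the deposited linear intensities, with every array scaled to a trimmed mean of 100. A fold is a difference of log2(signal + 10), which understates the change of dim genes, and a gene was called at an adjusted p below 0.05 (limma, Benjamini-Hochberg over all probe sets tested) and at least 2-fold. A signal counts as low here when it lies under the 40th percentile of its array, which was between 3.07 and 14.4. The deposited values come without detection calls. All 9 genes passed this limit in at least 1 group of each of the 48 comparisons, through the probe set used.

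All 9 genes varied widely between tissues. The ratio of the highest to the lowest group mean was 3113 for apolpp, 1045 for Apoltp, 1041 for Lsd-2, 479 for Lsd-1, 355 for mdy, 252 for LpR2, 145 for LpR1, 94.9 for Mtp and 73.7 for bmm. The largest ratios rest on groups at the floor of the array. A fat body group had the highest mean for 7 of the 9 genes, the heart for LpR1 and the virgin spermatheca for bmm. Most steps in the order of groups were small: of the 33 steps between neighbouring groups, the arrays overlapped in 28 (Mtp and apolpp) to 31 (LpR2 and bmm). The top groups of LpR1, bmm and Mtp were exceptions, since none of their arrays overlapped the group next in order. Without array 2, which resembles muscle, the redone mated spermatheca had the highest apolpp mean, 9936 ± 1201 (SD, n = 3), and of the other 8 genes each kept its top group.

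**Figure D1:**
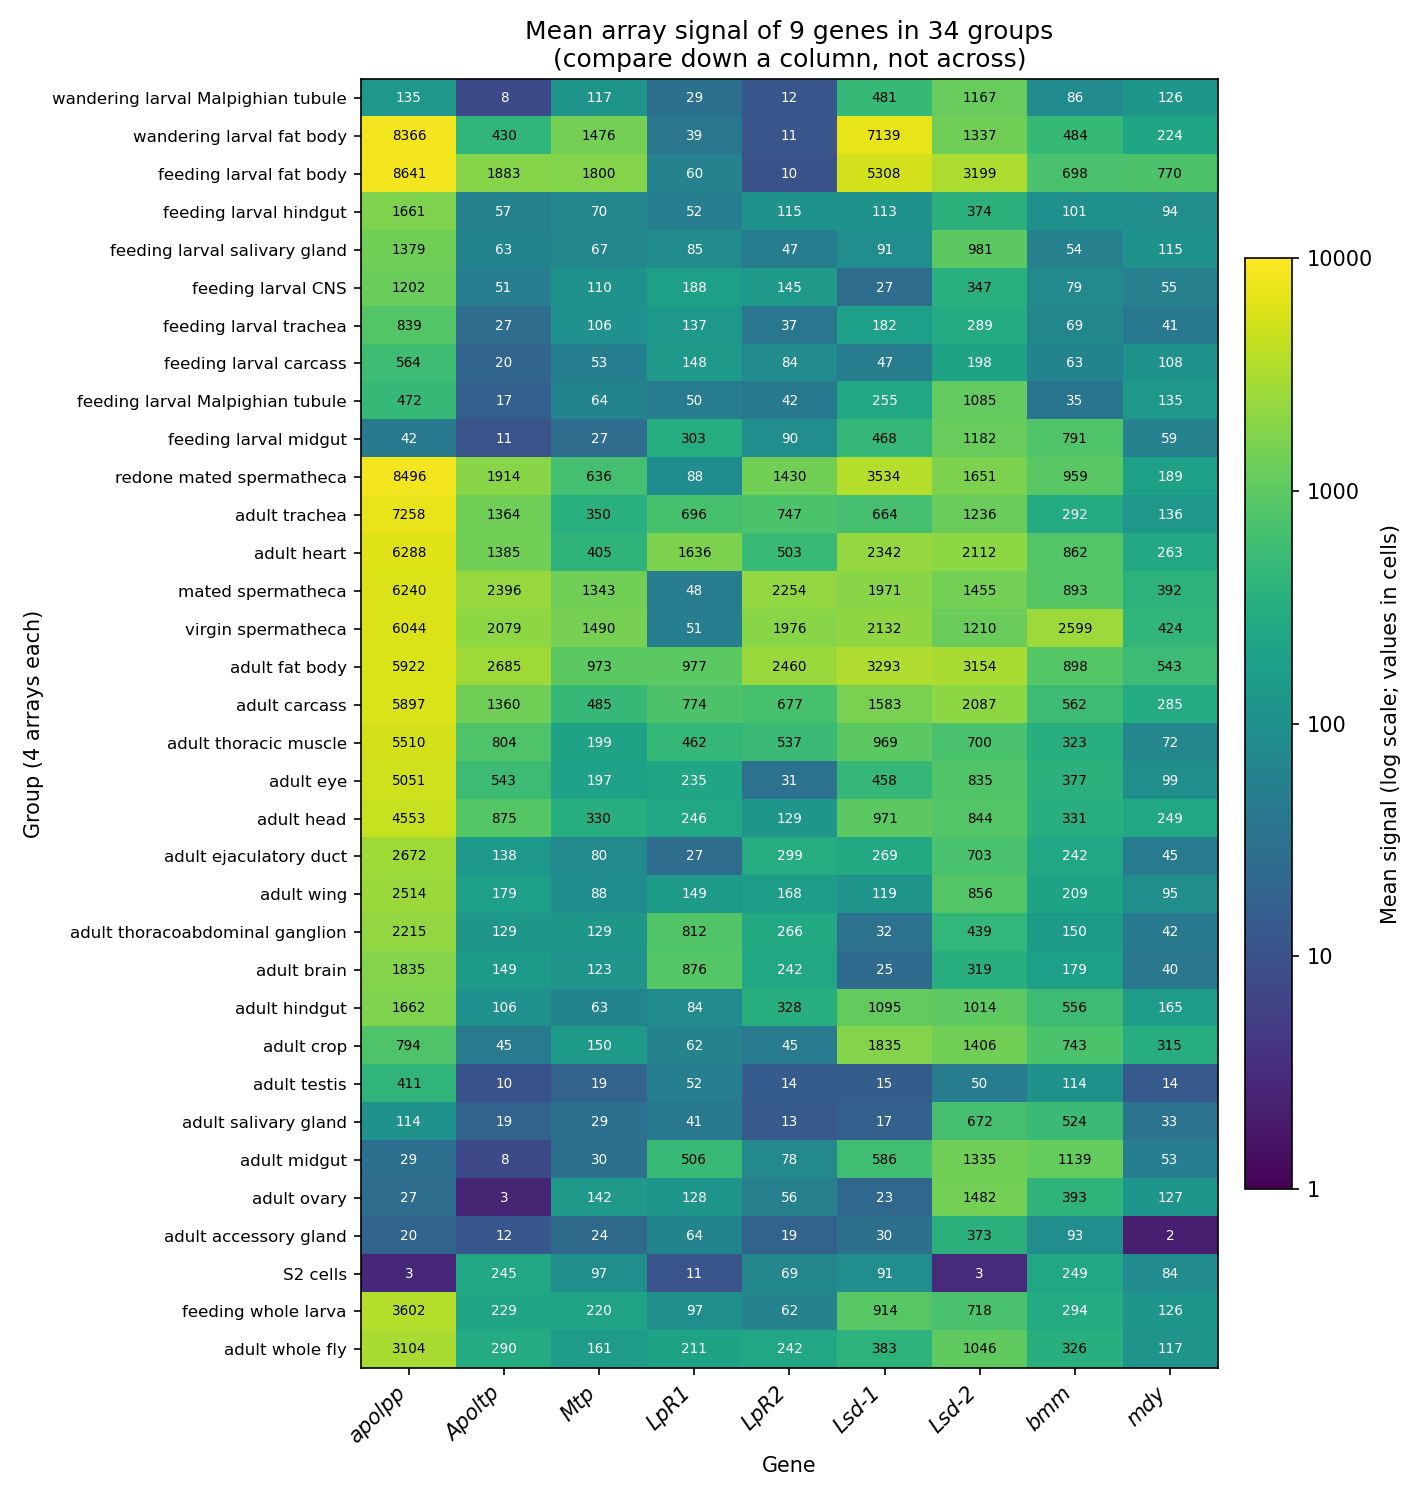
Mean signal of each gene (columns) in each of the 34 groups (rows, 4 arrays each), on a log colour scale with the mean printed in each cell. Columns are to be read downwards, since probe sets of different genes are not on one scale; apolpp is highest in larval fat body (8641 feeding) and near the floor in S2 cells (2.78), and LpR2 is at 9.75 in feeding larval fat body against 2460 in adult fat body.

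Over the 22 comparisons of an adult tissue or S2 cells with the whole fly, the 9 genes were called higher 53 times and lower 62 times among 198 values. The background over all probe sets tested was 12.8% higher and 29.6% lower. LpR1 was called higher in 7 tissues and lower in 10, Apoltp and Lsd-1 each higher in 8 and lower in 9 and 8, and bmm higher in 6 and lower in 3. Without both resembling arrays there were 59 higher and 67 lower calls. Over the 8 larval tissues against the whole larva there were 10 higher and 38 lower calls among 72 values (background 11.7% and 19.7%). Of these 10, 7 were in the fat body, 2 in the midgut (LpR1 and bmm) and 1 in the CNS (LpR2, log2 fold 1.09). The CNS call was lost with quantile normalization.

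The scale of the arrays bears on the adult counts. With quantile normalization the median of all probe sets moved up by 0.473 (midgut), 0.492 (ovary) and 0.527 (fat body) on the log2 scale against the whole fly. The share of calls that were higher became 50.3%, 54.3% and 50.7% there, against 26.2%, 29.7% and 26.8% as deposited. The 9 genes then had 49 higher and 58 lower calls in the adult comparisons, and 99 of the 115 calls were made both ways in the same direction. The median also moved by 0.319 in feeding larval fat body against whole larva (higher calls 49.2% of all calls against 35.2%), by 0.242 in ovary against fat body and by -0.205 in wandering against feeding larval fat body (34.8% against 45.8%). In the other sets of comparisons 45 of 48, 38 of 39, 6 of 6 and 37 of 40 calls were made both ways.

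apolpp was high in every fat body group, far below the whole animal in midgut and ovary, and low in S2 cells. Its signals were 8825, 7970, 9799 and 7969 in feeding larval fat body, 9853, 5878, 8591 and 9143 in wandering larval fat body, and 5042, 5575, 6244 and 6826 in adult fat body. The whole fly had 2903, 2836, 3035 and 3641, below every fat body array. The adult fat body lay 0.93 ± 0.131 (SE) above the whole fly in log2 (adjusted p = 7.4e-05), short of 2-fold, and so was not called. In feeding larval fat body apolpp was called higher than in the whole larva, at 1.26 ± 0.105 (adjusted p = 1.2e-05).

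In the adult midgut the apolpp signals were 33.9, 18.9, 48.1 and 16.6, and in the ovary 25.0, 29.1, 28.4 and 23.6. Both tissues were far below the whole fly, by log2 folds of -6.37 ± 0.227 and -6.41 ± 0.101. The larval midgut gave -6.29 ± 0.34 against the whole larva. S2 cells, with 2.28 to 3.55, were the only group in which no array reached the 40th percentile. Nervous tissue lay in between, with 1680 to 2018 in the adult brain and 2104 to 2351 in the thoracoabdominal ganglion. The fat body markers summed to 143 to 223 in the brain and 141 to 288 in the ganglion, and their part in these apolpp signals was not tested. The testis had 385 to 434, which was called higher than the ovary (log2 fold 3.53 ± 0.0737). The fat body markers summed to 21.8 to 29.1 in the testis, and their part in this difference was not tested.

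Apoltp followed the adult fat body more closely and, unlike apolpp, was present in S2 cells. Signals were 2356, 2660, 2782 and 2939 in adult fat body, against 259, 243, 302 and 355 in the whole fly, a log2 fold of 3.18 ± 0.137 (adjusted p = 9.5e-09). In the mated and virgin spermatheca, with their attached fat body, the means were 2396 ± 335 and 2079 ± 227 (SD, n = 4 each), and in the heart 1385 ± 101. The midgut had 2.57 to 10.8 and the ovary 0.443 to 4.42. In the ovary only 2 of 4 arrays reached the 40th percentile, the lowest group of the series for this gene. S2 cells had 230 to 275, overlapping the whole fly (log2 fold -0.22, adjusted p = 0.13).

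Mtp had its highest mean in feeding larval fat body, with 1824, 1933, 1810 and 1632, against 223, 227, 218 and 212 in the whole larva. The log2 fold was 2.98 ± 0.0907 (adjusted p = 2.4e-08). Adult fat body had 829, 1026, 953 and 1085, and the whole fly 153, 159, 159 and 172, for a log2 fold of 2.52 ± 0.112. In the ovary Mtp was at 140 to 148, within 2-fold of the whole fly (log2 fold -0.16), whereas apolpp and Apoltp were called lower there. In the adult midgut it was at 25.6 to 33.0 (log2 fold -2.09 ± 0.097 against the whole fly) and in the larval midgut at 24.2 to 30.4 (-2.64 ± 0.0893 against the whole larva). All 3 lipoprotein genes were thus called lower in the gut's absorptive part at both stages.

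LpR1 and LpR2 are adjacent protein-coding genes on chromosome arm 3R, with 0 other protein-coding genes starting between them in RefSeq's gene table (Release 6). Their patterns differed. LpR1 was highest in the heart, with 1723, 1667, 1640 and 1514, then in adult fat body, with 1011, 858, 1054 and 984, against 195, 244, 204 and 203 in the whole fly. The heart lay 2.90 ± 0.108 above the whole fly (adjusted p = 5.7e-10) and the fat body 2.16 ± 0.114 (adjusted p = 3.7e-08). Heart and fat body arrays did not overlap, but their difference of 0.74 ± 0.104 was short of 2-fold. The heart also held markers of nephrocytes and heart cells at a summed signal of 9674 to 11101, against 177 to 572 in adult fat body, and haemocyte markers at 5760 to 6052 against 1047 to 1219. Their part in the LpR1 signal was not tested.

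LpR1 was also high in the adult nervous system and in the midgut. The brain had 940, 925, 884 and 756 (log2 fold 2.00 ± 0.108 against the whole fly) and the thoracoabdominal ganglion 680 to 925 (1.89 ± 0.118). LpR1 was the only gene of the 9 called higher in these tissues. The adult midgut had 510, 491, 515 and 509, called higher by 1.23 ± 0.0974 (adjusted p = 6.6e-07), and the larval midgut 228 to 411, called higher than the whole larva by 1.52 ± 0.166 (adjusted p = 2e-05). In mated and virgin spermatheca, by contrast, LpR1 was at 30.2 to 75.7 and 49.5 to 51.1, called lower than the whole fly at -2.0 ± 0.214 and -1.87 ± 0.103. The other probe set of LpR1 did not show this pattern: its mean over all arrays was 5.64, against 277 for the one used, and in adult fat body it averaged 18.6. With the mean of both probe sets the fold in the adult midgut was 0.83, not called. Calls of LpR1 that held had smaller folds with this mean: 1.16 in adult fat body against the whole fly, -2.52 in larval against adult fat body, -1.08 in larval fat body against larval midgut and -1.42 in ovary against fat body. The LpR1 calls in brain, ganglion and larval midgut were not compared singly with this mean. The other probe set averaged 10.4 in brain, 5.31 in ganglion and 12.8 in the whole fly. It averaged 1.08 in larval midgut and 0.753 in the whole larva.

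LpR2 was highest in adult fat body, with 2629, 2474, 2340 and 2398, against 269, 232, 165 and 302 in the whole fly, a log2 fold of 3.33 ± 0.167 (adjusted p = 2.6e-08). The mated and virgin spermatheca came next, at 1831 to 3015 and 1863 to 2138. Every array of these 3 groups was above every whole fly array. The brain had 235 to 250 and did not differ from the whole fly by the test (log2 fold 0.03, adjusted p = 0.86). The adult midgut had 63.3 to 96.1 (log2 fold -1.50) and the ovary 55.3 to 57.8 (-1.90), both called lower.

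In feeding larval fat body both receptors had far less signal than in adult fat body. LpR2 had 16.4, 7.24, 5.99 and 9.37 in feeding larval fat body, its lowest group, against 71.6, 49.7, 63.6 and 63.1 in the whole larva, where the log2 fold was -1.88 ± 0.176 (adjusted p = 2.4e-05). LpR1 had 51.3, 62.2, 71.1 and 56.4 in feeding larval fat body. Set against adult fat body, the larval tissue was lower at -6.99 ± 0.165 for LpR2 (adjusted p = 1.2e-08) and at -3.82 ± 0.128 for LpR1 (adjusted p = 9.7e-08). The oenocyte markers, genes of the hydrocarbon-making cells that lie beside the adult fat body, moved the same way: they summed to 32.6 to 60.0 in feeding larval fat body and to 16997 to 21827 in adult fat body. Among other tissues, the heart had LpR1 at 1514 to 1723 with oenocyte markers at 19305 to 25667. The virgin spermatheca had LpR2 at 1863 to 2138 with these markers at 35.5 to 92.7, and the brain LpR1 at 756 to 940 with 10.5 to 31.0. The part of oenocytes in the receptor differences between larval and adult fat body was not tested.

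The perilipins shared high signal in fat body but differed in the ovary. Lsd-1 had 8434, 4953, 7671 and 7499 in wandering larval fat body, 6115, 4587, 5675 and 4856 in feeding larval fat body and 3312, 2871, 3309 and 3678 in adult fat body, against 455, 414, 281 and 384 in the whole fly. Adult fat body lay 3.09 ± 0.154 above the whole fly (adjusted p = 2.5e-08). The crop, a food store of the foregut, had 1728 to 1944 (log2 fold 2.25 ± 0.142), the adult midgut 488 to 653 (0.61, not called). In the ovary Lsd-1 was at 23.4, 30.2, 21.2 and 16.1, lower than the whole fly at -3.58 ± 0.167 (adjusted p = 1.7e-08), and in the brain at 16.2 to 32.1 (-3.48 ± 0.18).

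Lsd-2 had 2738, 3253, 3308 and 3496 in feeding larval fat body and 2645, 2181, 3842 and 3951 in adult fat body, against 1038, 1215, 1006 and 927 in the whole fly. Adult fat body was called higher by 1.55 ± 0.193 (adjusted p = 3e-05). The ovary, unlike for Lsd-1, had high Lsd-2 signals of 1478, 1497, 1410 and 1543, each above every whole fly array, with a log2 fold of 0.50 ± 0.0943 (adjusted p = 0.00059) that was short of 2-fold. In the brain Lsd-2 was called lower than in the whole fly, as Lsd-1 was, at 319 ± 24.4 (SD, n = 4) and a log2 fold of -1.68 ± 0.106. The crop had 1325 to 1567 (0.43, not called). The testis had 38.2 to 60.1, lower than the ovary at -4.66 ± 0.107 (adjusted p = 2e-11), the largest fall of the 9 genes between the gonads. S2 cells had 0.946 to 6.0, with 1 of 4 arrays at the 40th percentile.

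The ratio of the perilipins differed between tissues. On the log2 scale, Lsd-2 minus Lsd-1 was 5.53 ± 0.275 in ovary and -0.10 ± 0.304 in adult fat body (SD, n = 4 each), a difference of 5.63. In the adult midgut it was 1.18 ± 0.10, 1.28 above the fat body. LpR2 minus LpR1 was -1.06 ± 0.0759 in ovary and -2.57 ± 0.203 in midgut, against 1.33 ± 0.157 in adult fat body, differences of -2.38 and -3.90. Each of these 4 differences had an exact two-sided permutation p = 0.0286, the smallest that 4 against 4 arrays can give, or 0.0343 adjusted over the 6 ratios tested. Only the differences between tissues can be read, because the probe sets of different genes are not on one scale.

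**Figure D2:**
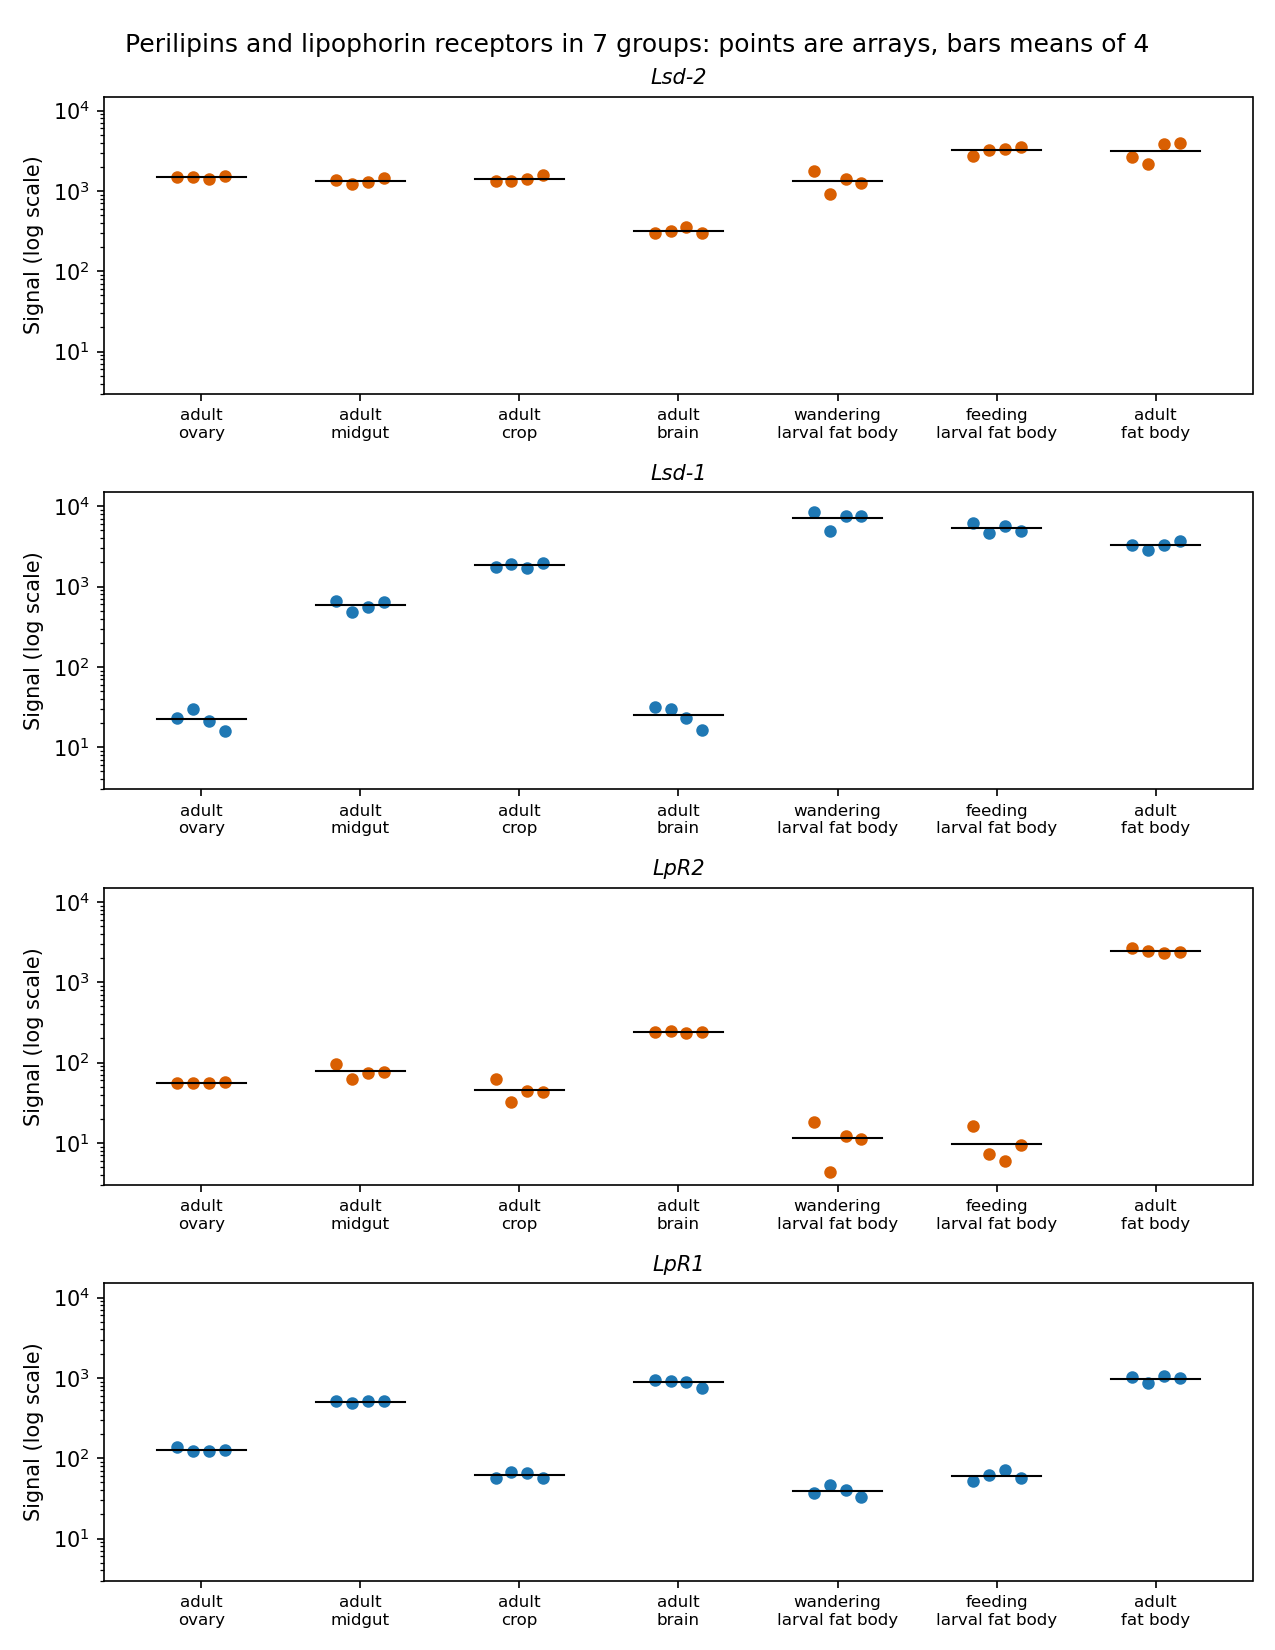
Signals of the perilipins Lsd-2 and Lsd-1 and of the lipophorin receptors LpR2 and LpR1 in 7 groups, on log axes; each point is 1 array and each bar the mean of 4. Lsd-2 stays at 1410 to 1543 in the ovary where Lsd-1 is at 16.1 to 30.2, and LpR2 is at 5.99 to 16.4 in feeding larval fat body against 2340 to 2629 in adult fat body.

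The lipase gene bmm was most abundant in the virgin spermatheca, at 2720, 3089, 2241 and 2346, against 353, 313, 299 and 338 in the whole fly, a log2 fold of 2.95 ± 0.124 (adjusted p = 1.8e-09). The adult midgut had 1185, 1043, 1077 and 1251, a mean of 1139 that was next in order with all arrays and came after the 1226 of the redone mated spermatheca without its array 2. The midgut was higher than the whole fly by 1.77 ± 0.101 (adjusted p = 4.7e-08), and adult fat body, at 885, 931, 927 and 848, by 1.44 ± 0.0999 (adjusted p = 2.9e-07). Every fat body array was below every midgut array, but fat body minus midgut, at -0.34 ± 0.0944 (adjusted p = 0.011), was short of 2-fold. Among the 9 genes, bmm and LpR1 were the only ones called higher in the midgut than in the whole animal, in adults and in feeding larvae alike. For LpR1 this rests on its brighter probe set. With the mean of both probe sets the adult midgut fold was 0.83, not called. The larval midgut had 530 to 964, higher than the whole larva by 1.37 ± 0.18 (adjusted p = 7.7e-05). The feeding larval Malpighian tubule, at 30.1 to 38.3, was the lowest group.

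The acyltransferase gene mdy had 586, 1112, 706 and 674 in feeding larval fat body and 546, 496, 509 and 622 in adult fat body, against 105, 121, 130 and 114 in the whole fly. Adult fat body was higher by 2.12 ± 0.114 (adjusted p = 4.2e-08). The crop had 282 to 362 (log2 fold 1.35 ± 0.107), and the adult midgut 42.0 to 62.0, called lower at -1.03 ± 0.12. That call was lost with quantile normalization, where the fold was -0.30, with a pseudocount of 40 (-0.77) and without midgut array 3 (-0.95) or whole fly array 3 (-0.99). In the ovary mdy was at 116 to 135, close to the whole fly (log2 fold 0.11, not called). The accessory gland had 1.45 to 3.13, with no array at the 40th percentile.

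Set side by side, 8 of the 9 genes were called higher in adult fat body than in the whole fly and none lower, against a background of 11.1% higher and 30.3% lower. With quantile normalization 7 were, since Lsd-2 then had a fold of 0.74. The oenocyte markers were also higher there, at a sum of 16997 to 21827 against 6328 to 6778 in the whole fly, and their part in this count was not tested. In feeding larval fat body 7 were called higher than in the whole larva and 1, LpR2, lower (background 9.49% and 17.5%). Here too quantile normalization removed 1 call, of apolpp at 0.35. Against the adult midgut, the adult fat body was higher for 7 genes and lower for none, with a background of 12.6% and 12.2%. The folds were 7.30 for apolpp and 7.28 for Apoltp, and LpR1 (0.93) and bmm (-0.34) were not called. Feeding larval fat body was higher than larval midgut for 6 genes and lower for 2, LpR1 at -2.13 ± 0.188 and LpR2 at -2.35 ± 0.201 (background 11.1% and 13.3%).

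The adult midgut had 2 genes higher and 5 lower than the whole fly (background 10.8% and 30.4%), and the larval midgut 2 higher and 4 lower than the whole larva (7.4% and 18.2%). Between larval and adult midgut none of the 9 genes was called, at a background of 4.52% higher and 5.06% lower. By limma 2 of them, both lower, had an unadjusted p below 0.05. The largest differences there were -0.76 for LpR1 and -0.55 for bmm, both short of 2-fold.

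The ovary had no gene called higher than in the whole fly and 4 lower, apolpp, Apoltp, LpR2 and Lsd-1 (background 12.5% and 29.5%). Against adult fat body all 9 were lower, at a background of 25.7% higher and 18.5% lower. The folds ran from -7.76 for Apoltp to -1.04 ± 0.182 for Lsd-2. The Lsd-2 call was lost with quantile normalization, where the fold turned to 0.06 (adjusted p = 0.74), and without fat body array 3 (-0.93) or 4 (-0.92). The testis had 1 gene higher than the ovary, apolpp, and 6 lower (background 22.9% and 32.5%). After Lsd-2, the largest falls there were mdy at -2.54 ± 0.0758 and Mtp at -2.40 ± 0.0888. The LpR1 call was lost with quantile normalization (-0.74) and a pseudocount of 40 (-0.87), and the LpR2 call with that pseudocount (-0.82). All 9 genes were lower in testis than in the whole fly, at a background of 40%, and all 9 in accessory gland, at 29.9%.

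In heart and carcass, as in fat body, most of the genes were called higher. In the heart all 9 genes were called higher than in the whole fly (background 10.5%), 7 with quantile normalization, and in the carcass 6 were (background 11.9%). Against adult fat body the heart had no gene higher and 3 lower, Mtp at -1.24 ± 0.117, LpR2 at -2.29 ± 0.142 and mdy at -1.03 ± 0.132 (background 6.84% and 7.2%). The mdy call was lost without heart array 2 or 3 or fat body array 4, with folds of -0.98 to -0.96, and with a pseudocount of 40 (-0.95). The fat body markers summed to 3699 to 6777 in heart and 5638 to 7373 in carcass, against 431 to 676 in the whole fly, and the oenocyte markers to 19305 to 25667 and 17516 to 20298, against 6328 to 6778. Their part in these counts was not tested.

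**Figure D3:**
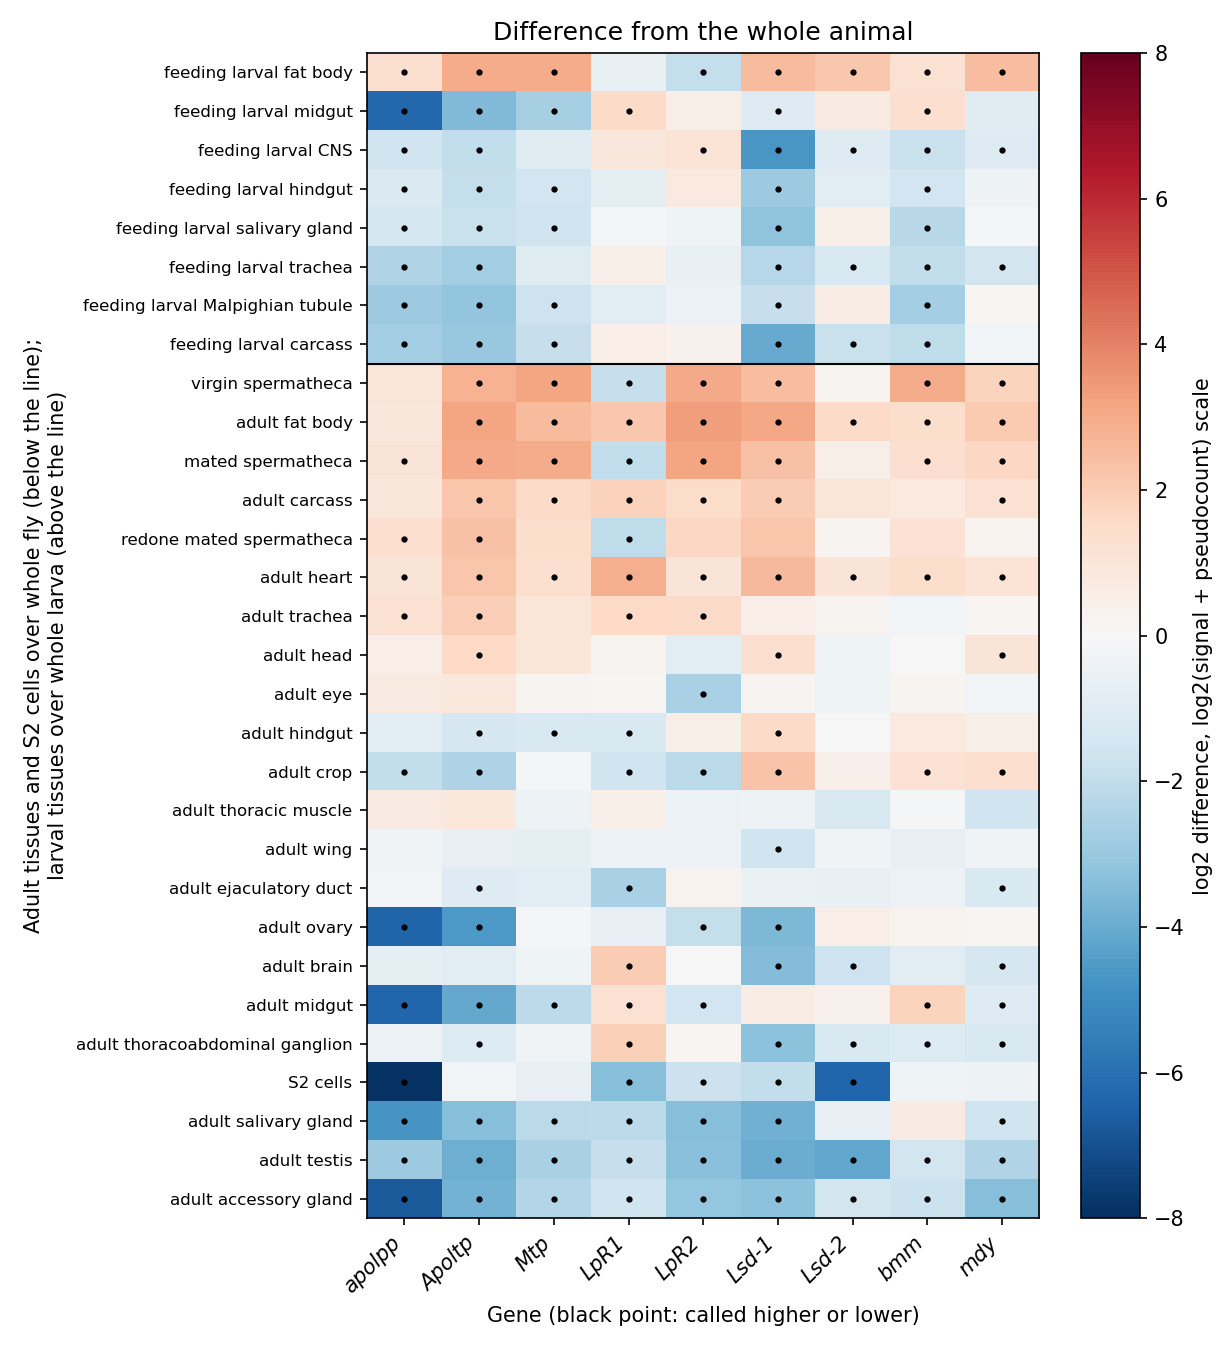
Log2 folds of the 9 genes in each adult tissue and S2 cells against the whole fly and in each feeding larval tissue against the whole larva, from the 2-group limma fits of 4 against 4 arrays. Adult fat body shows 8 called increases and no decrease, while the midgut combines increases of LpR1 (1.23, with its brighter probe set) and bmm (1.77) with a decrease of apolpp (-6.37).

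The thoracic muscle and the redone mated spermatheca depend on the arrays that resemble the other group. With all arrays, the redone spermatheca had 2 genes higher and 1 lower than the whole fly, against a background of 5.52% and 28.7%. Without both arrays it had 7 higher and 1 lower, with Lsd-1 at 3.58, Apoltp at 3.04, LpR2 at 2.94 and LpR1, the lower one, at -2.89. In the thoracic muscle 0 genes were called either way with all arrays (background 9.71% and 27.5%). By limma, 1 gene there, higher, had an unadjusted p below 0.05. Without both arrays, LpR1 was called higher at 1.45 and 5 genes lower: Mtp at -1.18, LpR2 at -1.61, Lsd-1 at -1.63, Lsd-2 at -2.05 and mdy at -2.43.

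The first mated and the virgin spermatheca had 7 and 6 of the genes called higher than in the whole fly, and each had LpR1 lower. The backgrounds were 11.6% higher and 30.6% lower for mated and 11.1% and 33% for virgin spermatheca. With quantile normalization the count for mated spermatheca was 6, apolpp not called. Between mated and virgin spermatheca 1 gene was called: bmm was lower in mated spermatheca, at 726, 575, 1306 and 965, against 2720, 3089, 2241 and 2346 in virgin spermatheca. The log2 fold was -1.59 ± 0.231 (adjusted p = 0.0086), and the arrays did not overlap. The background of this comparison was 0.266% higher and 0.474% lower. The redone mated spermatheca, not tested against the virgin one, had bmm at 1203, 1507 and 969, and at 156 in the array that resembles muscle. Of its arrays, only array 4 had 2 rounds of amplification, as the virgin arrays had.

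No other gene of the 9 passed, with folds from -0.16 (Mtp) to 0.26 (Lsd-2, adjusted p = 0.23). The fat body markers summed to 4571 to 7213 in mated and 8266 to 9743 in virgin spermatheca, without overlap. Gnmt averaged 3008 in mated and 3357 in virgin spermatheca, fit 2711 and 4715, and Lsp2 69.0 and 993. The part of the markers in the bmm difference was not tested.

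**Figure D4:**
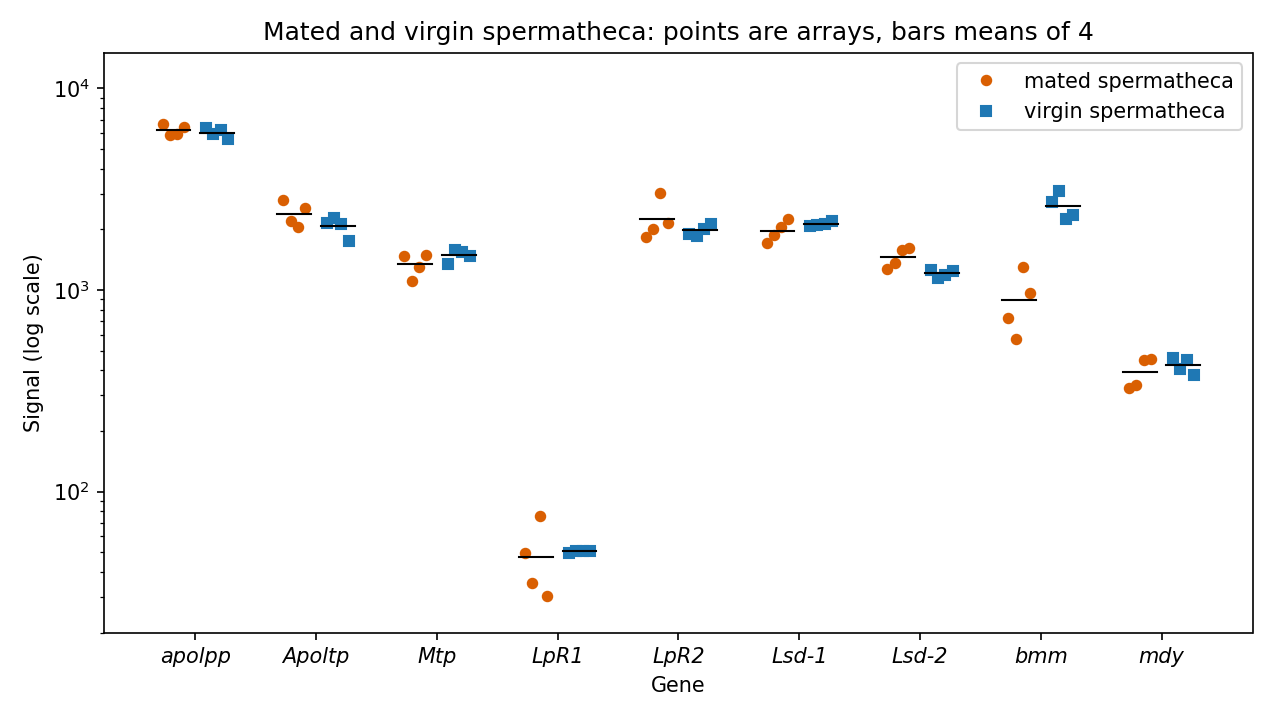
Signals of the 9 genes in mated (left, circles) and virgin (right, squares) spermatheca on a log axis, each point 1 array and each bar the mean of 4. bmm alone separates the groups by more than 2-fold, at 575 to 1306 in mated against 2241 to 3089 in virgin spermatheca.

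Of the 9 genes, only the receptors were called between larval and adult fat body. Feeding larval fat body had no gene called higher than adult fat body and 2 lower, LpR1 and LpR2 (background 6.64% and 9.34%). Mtp was 0.88 above, Lsd-1 0.68 and apolpp 0.55, all short of 2-fold, and Lsd-2 differed by 0.06. Over the 9 comparisons of larval with adult samples, of which the larval CNS arrays enter 2 (brain and ganglion), there were 7 higher and 32 lower calls among 81 values (background 10.4% and 12.5%). Of these, 9 lower calls were in trachea (background 15.2%, Apoltp at -5.08), and 9 in carcass (13%, Apoltp at -5.54 and Lsd-1 at -4.83), where the dissections differ. In trachea the fat body markers summed to 712 to 2293 in larvae and 3848 to 6134 in adults, and those of nephrocytes and heart to 140 to 558 and 3918 to 8757. In carcass the fat body markers summed to 1257 to 2405 in larvae and 5638 to 7373 in adults, and the oenocyte markers to 5907 to 7041 and 17516 to 20298. The part of these markers in the lower calls was not tested. The larval salivary gland had 6 higher and 1 lower (9.14% and 12.8%), apolpp at 3.56 and bmm at -3.05. There the fat body markers summed to 7795 to 8704 in larval and 46.3 to 134 in adult glands, and their part was not tested.

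The stage difference was not alike in fat body and midgut for 5 of the 9 genes. By the interaction term, larval minus adult in fat body minus the same in midgut was -7.18 ± 0.239 for LpR2 (adjusted p = 1.9e-12), -3.06 ± 0.211 for LpR1 (1.1e-08), 1.06 ± 0.287 for Lsd-1 (0.008), 1.01 ± 0.152 for Mtp (7e-05) and -0.77 ± 0.213 for Apoltp (0.0093). Those 5 of 9 passed at an adjusted p below 0.05, where 39.1% of all probe sets did. Lsd-2, bmm, mdy and apolpp did not pass.

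Wandering larval fat body had 3 of the 9 genes lower than feeding larval fat body and none higher, against a background of 4.72% lower and 3.99% higher. Apoltp had 497, 435, 441 and 347 in wandering larvae, against 1641, 2115, 2021 and 1756 in feeding larvae, a log2 fold of -2.11 ± 0.157 (adjusted p = 0.00021). Lsd-2 had 1754, 919, 1407 and 1266, against 2738, 3253, 3308 and 3496 (-1.28 ± 0.206, adjusted p = 0.0041). mdy had 314, 155, 232 and 197, against 586, 1112, 706 and 674 (-1.73 ± 0.264, adjusted p = 0.0033). The arrays did not overlap for any of the 3.

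apolpp (-0.07), Mtp (-0.30) and Lsd-1 (0.41, adjusted p = 0.17) did not pass in the same arrays. Lsd-2 minus Lsd-1 was therefore -2.42 ± 0.122 in wandering and -0.73 ± 0.319 in feeding larval fat body, a difference of -1.69 (exact permutation p = 0.0286). LpR2 minus LpR1 did not differ by the test (0.62, exact p = 0.143). The fat body marker sums overlapped between these groups. Muscle markers summed to 189 to 342 in wandering and 537 to 946 in feeding larval fat body, without overlap. Testis markers summed to 362 to 4001 and 47.2 to 1240, and midgut markers to 65.2 to 1339 and 40.8 to 87.9. The part of these markers in the differences was not tested.

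**Figure D5:**
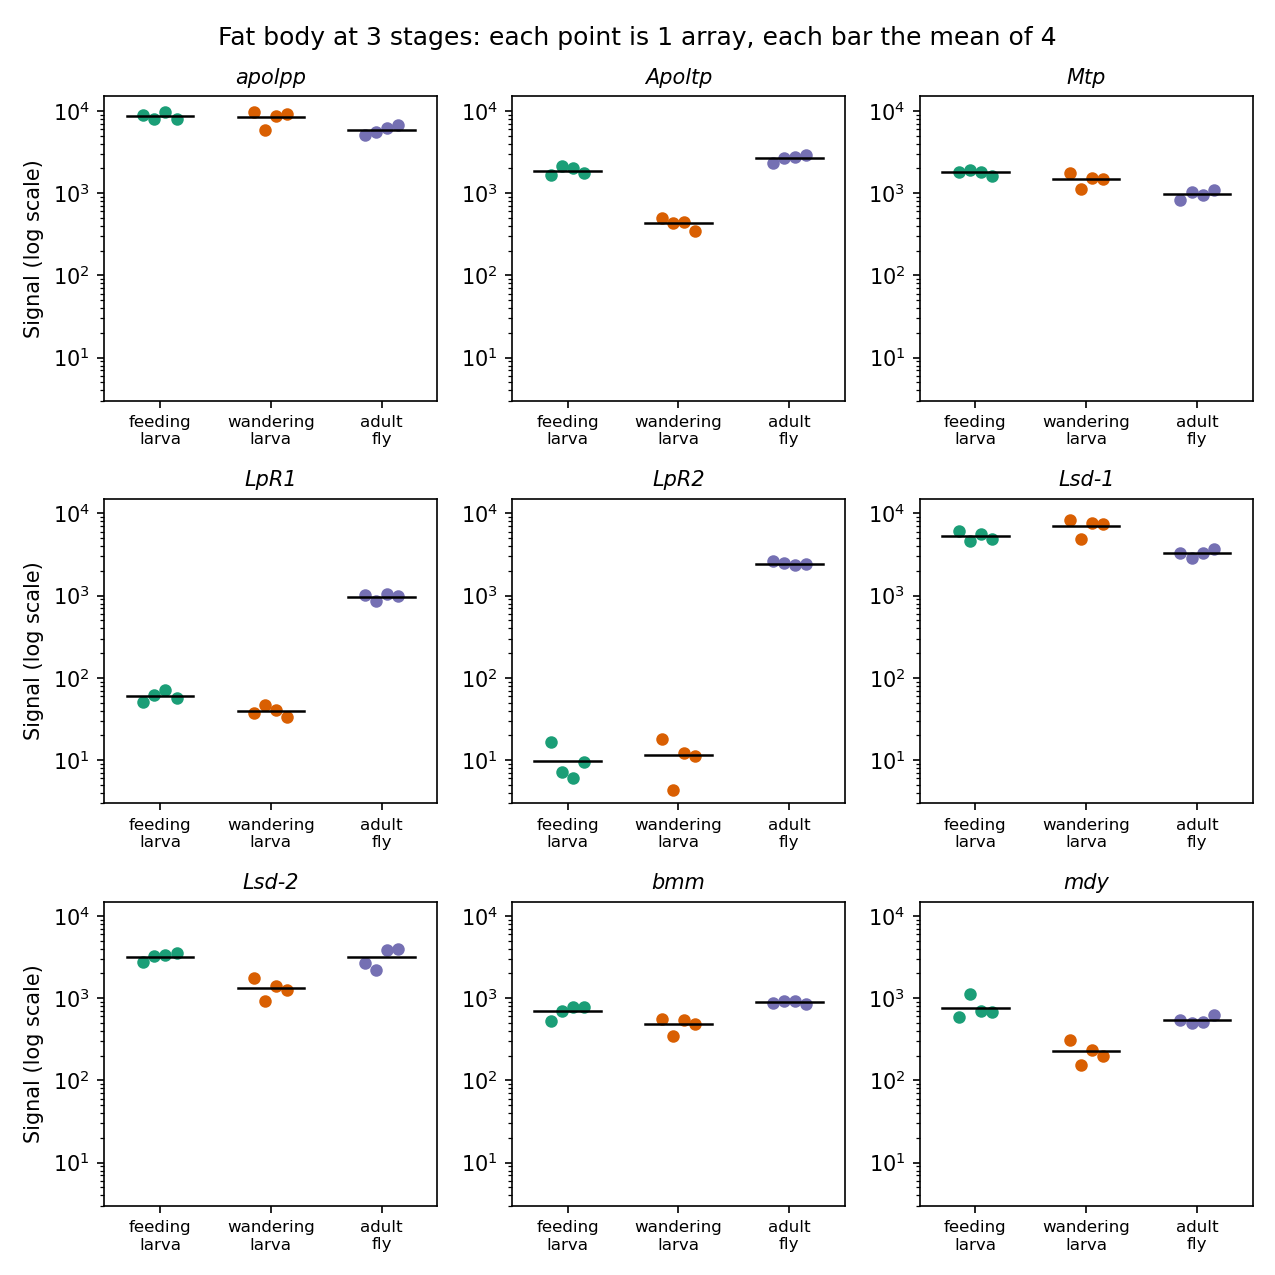
Signals of the 9 genes in the fat body of feeding larvae, wandering larvae and adults, on log axes, each point 1 array and each bar the mean of 4. Apoltp dips in wandering larvae (347 to 497), Lsd-2 and mdy are lower there than in feeding larvae. Both receptors have less signal in larvae at both stages than in adults.

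In the Malpighian tubule, the excretory organ, wandering larvae had 1 gene higher and 2 lower than feeding larvae (background 3.4% and 3.53%). bmm was at 103, 79.3, 82.6 and 79.1 in wandering and 30.1, 37.0, 35.8 and 38.3 in feeding larvae (1.08 ± 0.105, adjusted p = 5.6e-05). That call was lost without wandering tubule array 1, at 1.00, just short of 2-fold. apolpp had 157, 53.8, 169 and 158 in wandering and 379, 429, 430 and 650 in feeding larvae (-1.82 ± 0.325, adjusted p = 0.002). LpR2 was lower at -1.29 ± 0.178 (adjusted p = 0.00044). With a pseudocount of 40 neither bmm (0.74) nor LpR2 (-0.67) was called. Over both tissues there were 1 higher and 5 lower calls among 18 values (background 3.7% and 4.12%).

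By the interaction term, 7 of the 9 genes had another wandering minus feeding difference in fat body than in tubule, where 14% of all probe sets did. Fat body minus tubule was -1.50 ± 0.212 for Apoltp, -1.38 ± 0.227 for Lsd-2, -1.61 ± 0.227 for bmm, -1.64 ± 0.3 for mdy, -1.08 ± 0.18 for Mtp, 1.39 ± 0.313 for LpR2 and 1.75 ± 0.404 for apolpp. Adjusted p-values from limma lay between 0.00022 and 0.0087. LpR1 (adjusted p = 0.82) and Lsd-1 (0.22) did not pass.

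Across the 7 comparisons of tissue pairs, the 9 genes had 16 higher and 24 lower calls among 63 values (background 15.3% and 14.8%). The ovary had 2 higher than the midgut, Mtp at 1.93 ± 0.0746 and mdy at 1.14 ± 0.104, and 3 lower, LpR1 at -1.91, Lsd-1 at -4.19 and bmm at -1.51.

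Other genes of lipid metabolism were followed as 5 lists, whose counts are to be read against the share of all probe sets called. In adult fat body against the whole fly, 12 of the 18 tested genes of triacylglycerol synthesis were higher and 2 lower (background 11.1% and 30.3%), with a median log2 fold of 1.5 against -0.31 for all probe sets. The fatty acid synthase FASN2 averaged 2519 ± 263 in fat body and 284 ± 21.2 in the whole fly (3.10 ± 0.115), and the acyl-CoA synthetase Acsl 2151 ± 117 and 361 ± 78.1 (2.56 ± 0.143). All 7 tested genes of fatty acid oxidation were higher, among them CPT2, a carnitine palmitoyltransferase, at 623 ± 30.1 against 116 ± 14.1 (2.33 ± 0.11). Of 11 genes of droplet proteins and lipolysis control 6 were higher and 1, Akh, lower. AkhR, the receptor of the lipid-mobilising adipokinetic hormone, was at 1943 ± 152 against 132 ± 29.8 (3.81 ± 0.16).

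Of 10 genes of lipoprotein handling and lipid uptake, 1 was higher in adult fat body and 4 lower than in the whole fly (background 11.1% and 30.3%), with a median of 0.03. The one that was higher, cv-d, a further gene of the lipoprotein family, was at 920 ± 57.1 against 109 ± 18.2 (2.97 ± 0.126), and the vitellogenin receptor gene yl, a marker of the ovary, at 12.3 ± 12.7 against 469 ± 81.1 (-4.56 ± 0.311). Digestive lipases had 9 of 12 lower and 1 higher in fat body. The medians were 1.78 for oxidation, 1.92 for the droplet list and -2.81 for digestive lipases. The oenocyte markers, with the sums given above, and the fat body markers were higher in adult fat body too, and their part in the list counts was not tested. In the midgut 9 of 13 digestive lipases were higher and 3 lower (background 10.8% and 30.4%), with CG6283 at 3009 ± 349 in midgut against 163 ± 74.4 in the whole fly (4.24 ± 0.286).

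Synthesis genes of the midgut were 8 higher and 5 lower of 18 (background 10.8% and 30.4%). Among the higher ones were CG1946 at 518 ± 27.3 against 23.1 ± 8.66 (4.03 ± 0.171) and Dgat2 at 165 ± 31.0 against 18.6 ± 8.34 (2.64 ± 0.206), 2 members of the DGAT2 family. The DGAT1 gene, mdy, was called lower at -1.03. That call was lost with quantile normalization (-0.30) and under the other settings given above for mdy. The droplet list had 3 higher and 2 lower of 11 in midgut, oxidation 1 and 1 of 7, and lipoprotein handling 1 and 4 of 10. The medians in midgut were 0.35 for synthesis, 0.59 for the droplet list, 0.50 for oxidation, -0.13 for lipoprotein handling and 2.69 for digestive lipases, against -0.30 for all probe sets. The droplet protein gene Jabba was at 24.8 ± 7.06 in midgut against 1025 ± 134 in the whole fly (-4.91 ± 0.153).

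The ovary had 1 synthesis gene higher and 9 lower of 19, 0 and 5 of 11 in the droplet list, 0 and 0 of 7 in oxidation, 0 and 3 of 10 in lipoprotein handling and 0 and 10 of 13 among digestive lipases, at a background of 12.5% higher and 29.5% lower. Agpat1, an acylglycerophosphate acyltransferase, was the higher one, at 141 ± 11.3 in ovary against 43.7 ± 6.75 in the whole fly (1.49 ± 0.106), and Ldsdh1, a droplet dehydrogenase, was at 7.29 ± 2.14 against 551 ± 107 (-5.01 ± 0.15). In the same order of lists the medians were -0.99, -0.47, 0.06, -0.22 and -3.55, against -0.05 for all probe sets.

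Between feeding larval and adult fat body, 7 of 18 synthesis genes were lower and none higher (background 9.34% lower and 6.64% higher), led by FASN2 at 6.69 ± 3.56 in larval against 2519 ± 263 in adult fat body (-7.26 ± 0.169). Lipoprotein handling had 2 higher and 3 lower of 10, with the sterol transport gene Npc2a at 1927 ± 219 in larval against 186 ± 21.9 in adult fat body (3.31 ± 0.134). The droplet list had 2 higher and 2 lower of 10, oxidation 0 and 1 of 7, and digestive lipases 0 and 0 of 8. Medians were -0.54 for synthesis, -0.14 for lipoprotein handling, -0.06 for the droplet list, 0.14 for oxidation and 0.06 for digestive lipases, against -0.02 for all probe sets. Oenocyte markers summed to 32.6 to 60.0 in feeding larval and 16997 to 21827 in adult fat body. Their part in the list counts and in the FASN2 difference was not tested.

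In wandering against feeding larval fat body, 6 of 15 synthesis genes were lower and 1, CG1941, higher (background 4.72% lower and 3.99% higher), with a median of -0.97 against 0.10 for all probe sets. ACC, acetyl-CoA carboxylase, was at 90.0 ± 9.13 in wandering against 1221 ± 73.9 in feeding larvae (-3.63 ± 0.128), and FASN1, chosen after its values were seen, at 2448 ± 522 against 7740 ± 698 (-1.67 ± 0.17). The droplet list had 4 lower and 1 higher of 10, with a median of -0.88. Ldsdh1 was at 198 ± 30.7 against 1961 ± 658 (-3.20 ± 0.237), and the lipase gene CG5966 at 2146 ± 206 against 634 ± 121 (1.76 ± 0.166). Oxidation had 0 and 0 of 7, with a median of -0.46, digestive lipases 0 and 0 of 8, with a median of 0.04, and lipoprotein handling 2 higher and none lower of 9, with a median of 0.28. Among the last was the lipocalin gene NLaz at 1223 ± 514 against 170 ± 53.3 (2.75 ± 0.33). The genes named from these lists were called at adjusted p-values from limma between 6.9e-10 (Jabba in midgut) and 0.0018 (CG1941 in wandering larvae).

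Across the 31 dissected groups, Apoltp followed apolpp and Mtp more closely than any other genes of the 9 followed each other. Pearson's r of group mean log2 values was 0.885 for apolpp and Apoltp and 0.854 for Apoltp and Mtp. Next came Mtp and mdy at 0.809 and Lsd-1 and mdy at 0.794, while apolpp and Mtp had 0.737. It was 0.745 for Lsd-1 and Lsd-2 and 0.40 for LpR1 and LpR2. LpR1 had the lowest values, between 0.0225 (Lsd-1) and 0.40 (LpR2). Without both resembling arrays no r moved by more than 0.0926, and LpR1 and LpR2 had 0.307. These values are descriptive, since groups share fat body tissue to differing degrees.

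Among all other genes, those closest to apolpp were Spn43Ab (r = 0.919), CG2233 (0.911) and CG1468 (0.904), and those closest to Apoltp were CG1468 (0.981), CG3246 (0.976) and CG15293 (0.967). TBC1D5 (0.949), CG4408 (0.916) and Idgf5 (0.905) were closest to Mtp. LpR1 had no match above CG15209 (0.787), CG10479 (0.773) and CG9896 (0.772), and LpR2 none above CG34217 (0.802), Hex-C (0.802) and spin (0.799). Irp-1B was among the 3 closest for Lsd-1 (0.902), Lsd-2 (0.828) and mdy (0.826). Lsd-1 was next closest to CG5958 (0.893) and CG13912 (0.884), Lsd-2 to Pex2 (0.833) and CPT2 (0.816), and mdy to yip2 (0.872) and Arc42 (0.844). For bmm they were bgm (0.838), NimC3 (0.824) and CG11899 (0.815). Without both resembling arrays 24 of these 27 were again among the 3 closest, the exceptions being spin, CPT2 and Arc42.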

How the data were processed

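The 34 groups have 4 arrays each (Affymetrix Drosophila Genome 2). What was deposited are linear signal intensities of 18952 probe sets; how background was corrected, probes were summarised and with what software is not given in the sources used here. Means trimmed by 2% per end were 100.002 to 100.006 on all deposited arrays, which had therefore been put on one scale.

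Each array was brought to a trimmed mean of 100 and used as log2(signal + 10). Leaving out 183 controls, 18769 probe sets were analysed: 13647 with 1 gene symbol in the platform annotation, 402 with several and 4720 not listed. Of these, 13544 symbols were matched to RefSeq's genes. The brightest probe set of a gene stands for it. The number of arrays and the height of a signal above background limit the precision.

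Groups follow the labels. The 48 comparisons were 22 adult tissues or S2 cells against whole fly, 8 larval tissues against whole larva, 9 larval against adult, 2 wandering against feeding and 7 pairs. Fits used limma 3.58.1, run in R 4.3.3, with only the 2 groups compared, on probe sets at the 40th percentile in at least 1 group, with Benjamini-Hochberg adjustment. Fits of 4 groups gave the 2 interaction terms, and exact permutation tests the ratios of gene pairs. The method was tested on simulated data. Replicate numbers did not pair the arrays (residuals of equal numbers correlated above 0.1 throughout in 0 of 48 comparisons, range -0.468 to 0.544).

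Of each list up to 3 called genes with the largest fold each way qualified for naming, and of the genes most like each member the 3 with the highest correlation. Members and lists were chosen with earlier results of these data known. The ratio of bmm to Hsl was not run. Alternatives were the deposited scale, quantile normalization, pseudocounts of 2 and 40, no filter, the 60th percentile, a replicate block, the mean of all probe sets, 1 fit of all groups, leaving out each array and, chosen after seeing the data, leaving out both resembling arrays.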

Additional observations from a re-analysis of the deposited data

Results flagged for a closer look

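Of 306 sets of 4 arrays (9 genes in 34 groups), 18 had 1 array far from the other 3 by Dixon's criterion, where chance gives about 15. Array 4 of the thoracic muscle, which resembles the redone mated spermatheca, gave 7 of them, with signals of 9572 for apolpp, 2264 for Apoltp (others 291 to 342), 599 for Mtp, 1850 for LpR2, 3513 for Lsd-1 (others 82.7 to 180), 2060 for Lsd-2 and 235 for mdy. Array 2 of the redone mated spermatheca, which resembles thoracic muscle, gave 290 for LpR1 (others 13.6 to 24.7) and 67.0 for Mtp (others 785 to 896).

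The other arrays were single ones. LpR1 was at 193 in head array 2 and 70.8 in larval salivary gland array 2, and Lsd-2 at 1894 in heart array 3. apolpp was at 53.8 in wandering tubule array 2 and 14.9 in accessory gland array 2. bmm was at 489 in head array 4 (others 278 to 280) and 103 in wandering tubule array 1, the array on which the bmm call in that tissue depends. mdy was at 188 in hindgut array 4 and 82.1 in wing array 2.

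The larval minus adult difference was not the same in fat body and midgut for 5 genes by the interaction test: LpR2 (-7.18), LpR1 (-3.06), Lsd-1 (1.06), Mtp (1.01) and Apoltp (-0.77), each as fat body minus midgut. The wandering minus feeding difference was not the same in fat body and tubule for 7: apolpp (1.75), LpR2 (1.39), Mtp (-1.08), Lsd-2 (-1.38), Apoltp (-1.50), bmm (-1.61) and mdy (-1.64).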

How the results depend on the processing

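Counts over whole sets of comparisons kept within 1.5 times under the alternatives run, with 2 exceptions. With a pseudocount of 40 the 9 genes had 4 higher calls in larval against adult (7 as reported) and 0 in wandering against feeding larvae (1 as reported). The last count ranged from 0 to 2 when single arrays were left out: 0 without wandering tubule array 1 and 2 without feeding tubule array 4. The numbers of genes passing the interaction tests also kept within 1.5 times under the alternatives run. Whether each single gene kept its interaction call was not compared. Ratio results kept their calls under the alternatives run, but with single arrays left out these were judged by the unadjusted exact p. In the called ratios the groups were fully apart. Leaving out a single array keeps them apart, so it tests these calls little. Of 70 single called folds, a pseudocount of 40 moved 22 by over 1.5 times and ended 6 calls, against 8 and 5 with quantile normalization, 8 and 0 with a pseudocount of 2, and 4 and 1 with the mean of probe sets. Of 126 single folds, 116 kept direction and call with quantile normalization. Those that changed sign there, none of them called there, were Lsd-2 in midgut (-0.27) and bmm in ovary (-0.00997) against whole fly, LpR2 in wandering against feeding fat body (-0.17), Lsd-2 in ovary against fat body (0.0627), apolpp in heart against fat body (-0.14) and Lsd-1 in mated against virgin spermatheca (0.01); the cause was not tested beyond the shift of all probe sets given with the results. Leaving out single arrays turned 5 uncalled folds, whose ranges were -0.0164 to 0.662 for apolpp in larval against adult midgut, -0.104 to 0.181 for Lsd-2 in larval against adult fat body, -0.155 to 0.0927 for apolpp and -0.0395 to 0.283 for LpR2 in wandering against feeding fat body, and -0.348 to 0.0161 for LpR1 in mated against virgin spermatheca. The replicate block changed no call among the 126 single folds. Apoltp in wandering against feeding fat body had -2.11 with the replicate block (adjusted p = 0.0096, limma).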
